A study of Bos taurus with 9 samples.

Results

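The miRNAs bta-miR-192, bta-miR-194 and bta-miR-215 were taken by name from a table of 515 mature miRNAs measured in rectal tissue of beef steers. All 3 were found, and all 3 were among the 245 miRNAs that reached at least 5 CPM (reads per 1000000 reads of the library total) in at least 4 libraries and were tested. Small RNA libraries were made from 5 super-shedders (SS), steers whose feces held more than 10000 colony-forming units of E. coli O157 per g, and from 4 non-shedders (NS), which tested negative. All were feedlot steers of mixed British and Continental breeding on the same kind of barley diet, the NS were pen-mates of the SS, and an age is not given in the sources used here. Each library came from 1 animal and from whole pieces of rectal wall, with epithelium, connective tissue, lymphoid tissue and muscle ground together; the pieces were biopsies cut 3 to 5 cm above the recto-anal junction. According to the paper the SS were identified days before slaughter, and not all were above the super-shedding level by then. It lists a count at slaughter only for SS steer 310, and the other SS as positive the day before, without a count.

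A miRNA pairs with messenger RNAs mainly through its seed, a short stretch near its 5′ end, and lowers their translation or stability. In human and mouse, miR-192 and miR-215 carry the same seed and repress overlapping groups of messenger RNAs, while miR-194 has another seed. The 3 are known as miRNAs of intestinal epithelial cells, where transcription factors of the HNF family keep their genes active, and they are also abundant in liver and kidney. In human cells p53, a transcription factor of the stress response, raises all 3.

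The genes of the 3 miRNAs lie side by side in pairs. In the bovine RefSeq annotation (assembly ARS-UCD2.0, used here for names and order only) MIR192 is followed by MIR194-2 between EHD1 and ATG2A, and MIR215 is followed by MIR194-1 between IARS2 and RAB3GAP2. A copy of a further gene, MIR194B or MIR194B-2, is annotated beside each copy of MIR194. Reads of bta-miR-194 can therefore come from either locus, and the contribution of each cannot be told apart here. In human the mature miR-192 and miR-215 differ at few positions, and how the authors' assignment split reads between them is uncertain.

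The library totals ranged from 650726 to 6314556 reads. Because the 3 miRNAs are abundant, even the shallowest measurement of them, bta-miR-194 in NS steer 242, rested on 708 reads (789.6 CPM, 95% Clopper-Pearson interval 733 to 850 CPM). Such intervals cover counting error only. The smooth muscle miRNA bta-miR-143 took 22.1% to 73.1% of a library, and the liver miRNA bta-miR-122 did not exceed 2.02 CPM in any library. Among the muscle markers of the rectal wall, all 6 of the list were found, and among the intestinal epithelial markers 9 of 10.

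The 3 miRNAs were among the most variable of the rectal wall, at rank 15, 16 and 5 of the 245 by fold range for bta-miR-192, bta-miR-194 and bta-miR-215. From the lowest to the highest of the 9 libraries bta-miR-192 spanned 82.1-fold, bta-miR-194 75.9-fold and bta-miR-215 249.7-fold. The median tested miRNA spanned 7.95-fold (244 miRNAs detected in every library). All of these extremes were SS libraries, with SS steer 294 the highest and SS steer 274 the lowest for each of the 3. In such bulk tissue, fewer epithelial cells and less of a miRNA per cell cannot be told apart.

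The most abundant of the 3 was bta-miR-192. In SS it was at 3305 CPM in steer 274, 13332 CPM in steer 310, 43558 CPM in steer 299, 186480 CPM in steer 287 and 271247 CPM in steer 294. In NS it was at 18026 CPM in steer 242, 52833 CPM in steer 165, 63348 CPM in steer 108 and 77161 CPM in steer 152. Thus 2 SS libraries lay above every NS library and 2 lay below every NS library, so that the SS enclosed the NS. By abundance it held position 1 of all miRNAs in SS steer 294 and position 22 in SS steer 274, while in NS it held position 2 in steers 108, 152 and 165 and position 13 in steer 242.

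The second in abundance was bta-miR-215. Its SS values were 392.5 CPM in steer 274, 3047 CPM in steer 310, 4681 CPM in steer 299, 25951 CPM in steer 287 and 97989 CPM in steer 294. Its NS values were 3349 CPM in steer 242, 7730 CPM in steer 165, 8615 CPM in steer 108 and 30342 CPM in steer 152. Only SS steer 294 lay above every NS library, and SS steers 274 and 310 lay below every one. NS steer 152 stood out among the NS, with 3.03% of its library against 0.335% to 0.861% in the other NS libraries.

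The least abundant was bta-miR-194, the miRNA with a gene copy at each locus. It was at 169.9 CPM in SS steer 274, 446.7 CPM in SS steer 310, 1066 CPM in SS steer 299, 6675 CPM in SS steer 287 and 12901 CPM in SS steer 294. In NS it was at 789.6 CPM in steer 242, 2386 CPM in steer 165, 3914 CPM in steer 108 and 4876 CPM in steer 152. The pattern was that of bta-miR-192, with 2 SS libraries above and 2 below every NS library. In abundance it ranked between position 16 and position 87 in SS, and between position 21 and position 82 in NS.

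**Figure D1:**
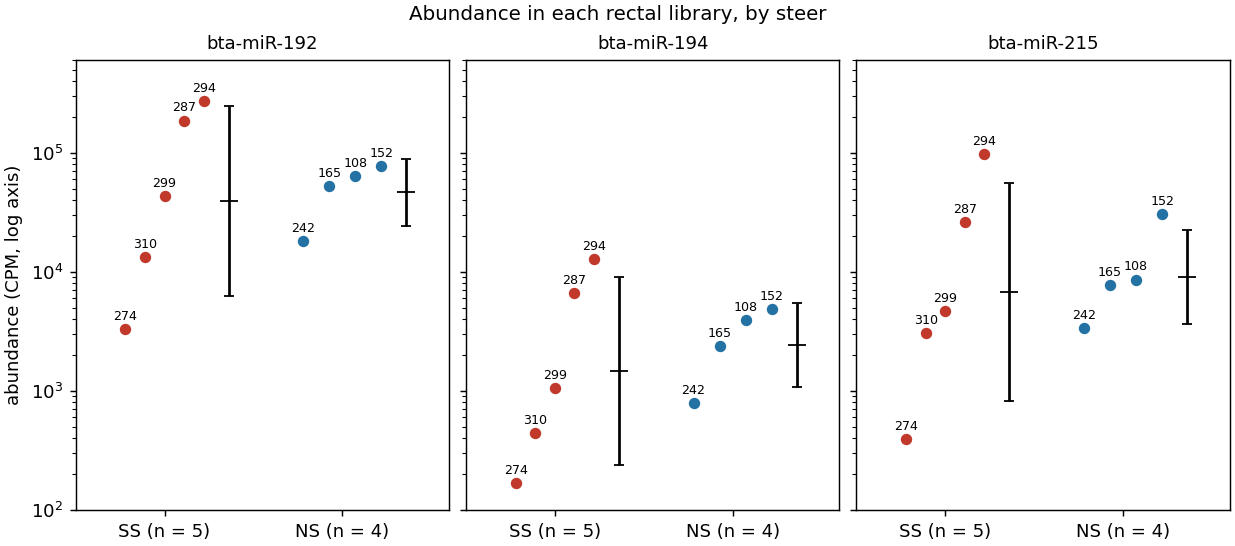
Abundance of bta-miR-192, bta-miR-194 and bta-miR-215 in CPM (log axis) in each SS library (red, n = 5) and each NS library (blue, n = 4), with steer numbers; the bar and whiskers beside each group are the mean and SD of log2(CPM + 1). For each miRNA the SS libraries reach both below and above the NS libraries, from 3305 to 271247 CPM against 18026 to 77161 CPM for bta-miR-192.

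The first comparison asked whether the 3 miRNAs differed in abundance between super-shedders and non-shedders. On the log scale none of them did beyond the spread between animals. In limma with Benjamini-Hochberg adjustment over the 245 miRNAs, the log2 difference (SS minus NS) was -0.23 for bta-miR-192 (SE 1.13, adjusted p = 0.900), -0.73 for bta-miR-194 (SE 1.15, adjusted p = 0.675) and -0.42 for bta-miR-215 (SE 1.31, adjusted p = 0.836). None of the 3 was called with the thresholds named in the methods (adjusted p of 0.1 and a log2 change of 1 in either direction), and 0 of the 245 miRNAs were (0%, with 40 at an unadjusted p under 0.05, and 9 called by DESeq2 and 1 by the exact test of edgeR). In two-sided exact permutation tests the p was 0.841, 0.603 and 0.802 for bta-miR-192, bta-miR-194 and bta-miR-215 (0.841 for each after adjustment over the 3). For 0 of the 3 the groups were free of overlap, against 6.53% of the miRNAs tested.

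These comparisons had wide intervals. The 95% interval of the log2 difference in limma ran from -2.69 to 2.23 for bta-miR-192, from -3.24 to 1.78 for bta-miR-194 and from -3.29 to 2.45 for bta-miR-215. For bta-miR-192 this leaves room for a level up to 6.46-fold lower or up to 4.69-fold higher in SS, so that similar levels in the groups were not shown either.

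The sign of the difference depended on how the animals were averaged. On the linear scale the means were higher in SS for all 3, and on the log scale lower with the deposited values, but not for bta-miR-192 and bta-miR-215 with TMM factors. The mean of bta-miR-192 was 103584 ± 119150 CPM over the 5 SS (SD), against 52842 ± 25258 CPM over the 4 NS (SD), while the medians were 43558 CPM in SS and 58090 CPM in NS. For bta-miR-215 it was 26412 ± 41287 CPM over the 5 SS (SD), against 12509 ± 12110 CPM over the 4 NS (SD), and for bta-miR-194 4252 ± 5522 CPM over the 5 SS (SD), against 2991 ± 1790 CPM over the 4 NS (SD). The high SS means came from steers 287 and 294. Without SS steer 274 the log2 difference turned to 0.66 for bta-miR-192, 0.05 for bta-miR-194 and 0.61 for bta-miR-215, and without SS steer 294 it was -0.93, -1.51 and -1.38 for bta-miR-192, bta-miR-194 and bta-miR-215.

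With the deposited scaling the median of all tested miRNAs itself had a log2 difference of -0.70, and the mean log2 value was lower in SS for 88.2% of the 245 miRNAs. Relative to that median, bta-miR-192 was at 0.46, bta-miR-215 at 0.27 and bta-miR-194 at -0.03. With TMM factors, which bring the median near 0, the log2 differences were 0.46 for bta-miR-192, 0.27 for bta-miR-215 and -0.04 for bta-miR-194.

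The spread among animals was then compared, as the mean absolute deviation of log2(CPM + 1) from the median of the own group. For bta-miR-192 it was 2.03 in SS and 0.59 in NS, a difference of 1.44 (two-sided exact permutation p = 0.103). For bta-miR-194 it was 2.03 in SS and 0.83 in NS (exact permutation p = 0.151), and for bta-miR-215 2.21 in SS and 0.83 in NS (exact permutation p = 0.230). After adjustment over the 3 the p values were 0.226, 0.226 and 0.230, so the wider range among SS did not pass the test. These group sizes allow no p under 0.00794. The p values for spread are approximate, because each group was centred on its own median before the deviations were permuted. With TMM factors the difference in spread was smaller, 0.68 for bta-miR-192, 0.61 for bta-miR-194 and 0.60 for bta-miR-215.

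Together the 3 miRNAs took 0.387% of the library in SS steer 274, 1.68% in SS steer 310, 4.93% in SS steer 299, 21.9% in SS steer 287 and 38.2% in SS steer 294. In NS they took 2.22% in steer 242, 6.29% in steer 165, 7.59% in steer 108 and 11.2% in steer 152. The means were 13.4% ± 16.3 over the 5 SS (SD), against 6.83% ± 3.72 over the 4 NS (SD), a difference that did not pass the test (two-sided exact permutation p = 0.516) and that shrank to 0.393 percentage points without SS steer 294. In SS steer 294 the 3 miRNAs together exceeded bta-miR-143, which held 22.1% there. With bta-miR-143 left out of the total, they made up 49.1% of the remaining reads in SS steer 294 and 1.44% in SS steer 274. A read counted under both bta-miR-192 and bta-miR-215 would enter these sums more than once, and the number of such reads is not known.

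**Figure D2:**
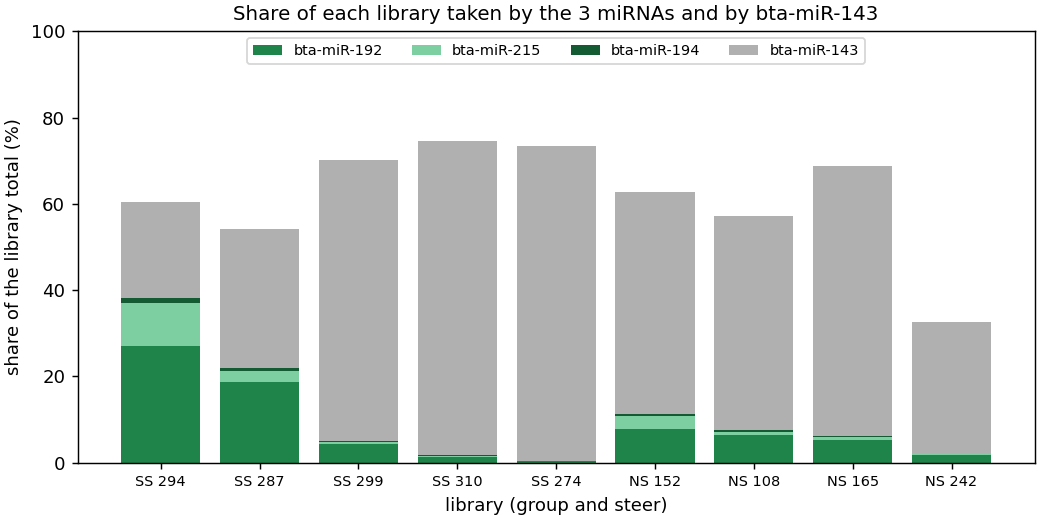
Stacked bars of the percent of each library total taken by bta-miR-192, bta-miR-215, bta-miR-194 and bta-miR-143, with SS libraries on the left and NS libraries on the right, each in falling order of the summed 3 miRNAs. The 3 miRNAs together take 38.2% in SS steer 294 but 0.387% in SS steer 274, while bta-miR-143 takes 22.1% to 73.1%.

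The 3 miRNAs moved together across the animals. The libraries stood in the same order for bta-miR-192 and bta-miR-194 in 9 of 9 places, and for bta-miR-192 and bta-miR-215 in 7 of 9, where SS steer 287 and NS steer 152 changed places. On the log2 scale Pearson's r was 0.976 for bta-miR-192 with bta-miR-194 (exact permutation p = 2.76e-06, adjusted over 6 pairs 1.65e-05) and Spearman's rho was 1 (exact permutation p = 5.51e-06, adjusted 3.31e-05, the smallest p these pairings give for rho). For bta-miR-192 with bta-miR-215 r was 0.962 (exact permutation p = 2.2e-05, adjusted 4.41e-05) and rho 0.983 (exact permutation p = 4.96e-05, adjusted 9.92e-05). For bta-miR-194 with bta-miR-215 r was 0.964 (exact permutation p = 5.51e-06, adjusted 1.65e-05) and rho 0.983 (exact permutation p = 4.96e-05, adjusted 9.92e-05). Without SS steers 274 and 294, the libraries farthest from the median, r remained at 0.946, 0.888 and 0.927 for these 3 pairs in the same order.

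The relation was present inside each group as well. For bta-miR-192 with bta-miR-194, r was 0.987 among the 5 SS and 0.988 among the 4 NS. For bta-miR-192 with bta-miR-215 it was 0.976 among SS and 0.857 among NS, and for bta-miR-194 with bta-miR-215 0.982 among SS and 0.876 among NS. All 3 are shares of the same library totals, and the epithelial content of a piece of tissue was not measured apart from the miRNAs, so its part in this relation was not tested. Some reads may also have been counted under both bta-miR-192 and bta-miR-215. The part of such reads in the r of this pair was not tested.

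**Figure D3:**
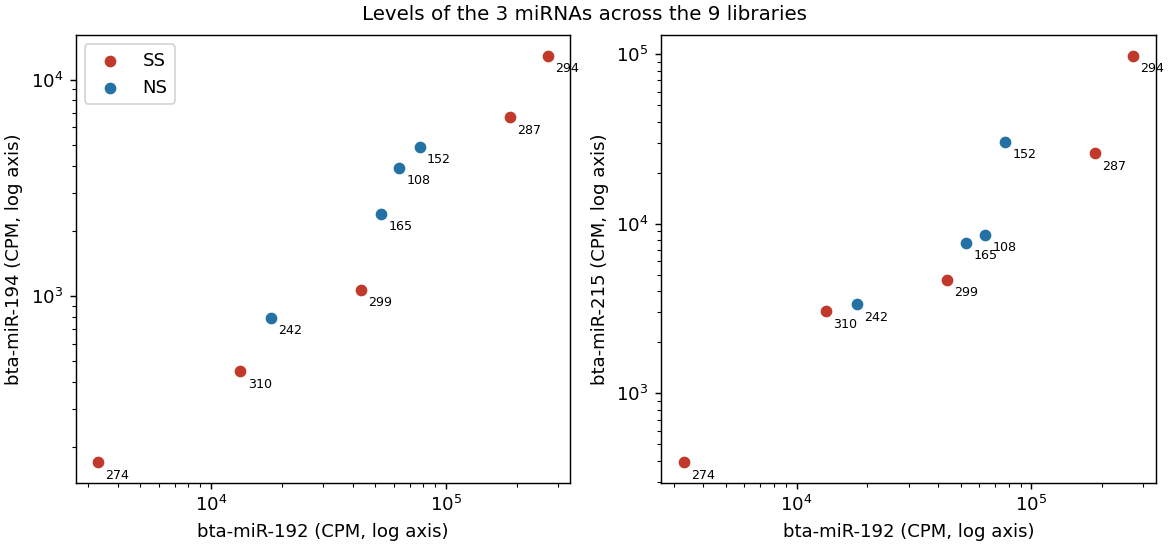
Abundance of bta-miR-194 (left) and bta-miR-215 (right) against bta-miR-192 in CPM, all axes log, for the SS (red) and NS (blue) libraries, labelled by steer. The 9 libraries lie along 1 line in both panels (Pearson's r of 0.976 and 0.962 on the log2 scale), and NS steer 152 and SS steer 294 lie high for bta-miR-215.

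The ratios between the 3 miRNAs do not depend on the scaling of a library, and they varied far less than the levels. In 9 of 9 libraries bta-miR-192 was above bta-miR-215 and bta-miR-215 above bta-miR-194 in read number, with bta-miR-192 2.54-fold to 9.30-fold above bta-miR-215 and 15.8-fold to 40.9-fold above bta-miR-194.

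Between the 2 miRNAs that share a seed, bta-miR-215 was at 10.7% of the reads of bta-miR-192 in SS steer 299, 11.9% in SS steer 274, 13.9% in SS steer 287, 22.9% in SS steer 310 and 36.1% in SS steer 294. In NS it was at 13.6% in steer 108, 14.6% in steer 165, 18.6% in steer 242 and 39.3% in steer 152. So 1 animal of each group, SS steer 294 and NS steer 152, had a ratio well above the others of its group. The means were 19.1% ± 10.6 over the 5 SS (SD), against 21.5% ± 12.1 over the 4 NS (SD), with a log2 difference of -0.19 (two-sided exact permutation p = 0.667, the same when adjusted over the 2 ratios). Without NS steer 152 this difference turned to 0.15.

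The values of a library summed to 2.49% to 8.94% more than its total. In SS steer 294 the excess was 3.11% of the total, while bta-miR-215 held 9.80%, and in NS steer 152 it was 2.84% beside 3.03%. In the other 7 libraries bta-miR-215 held less than the excess. How many reads were counted under both bta-miR-192 and bta-miR-215 was not tested. The part of such reads in their correlation, in their ratio and in the summed share of the 3 was not tested either.

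Per read of bta-miR-192, bta-miR-194 was lower in most SS libraries. It was at 2.45% in SS steer 299, 3.35% in SS steer 310, 3.58% in SS steer 287, 4.76% in SS steer 294 and 5.14% in SS steer 274. In NS it was at 4.38% in steer 242, 4.52% in steer 165, 6.18% in steer 108 and 6.32% in steer 152. The groups overlapped, with 2 SS libraries inside the NS range and 3 below it. The means were 3.85% ± 1.09 over the 5 SS (SD), against 5.35% ± 1.04 over the 4 NS (SD), a log2 difference of -0.50 that did not pass the test (two-sided exact permutation p = 0.0873, adjusted over the 2 ratios 0.175). Leaving out any 1 library kept it below 0, from -0.62 without SS steer 274 to -0.35 without SS steer 299. Set against the sum of bta-miR-192 and bta-miR-215, the neighbours of both gene copies, bta-miR-194 was at 3.23% ± 0.899 over the 5 SS (SD), against 4.40% ± 0.776 over the 4 NS (SD).

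**Figure D4:**
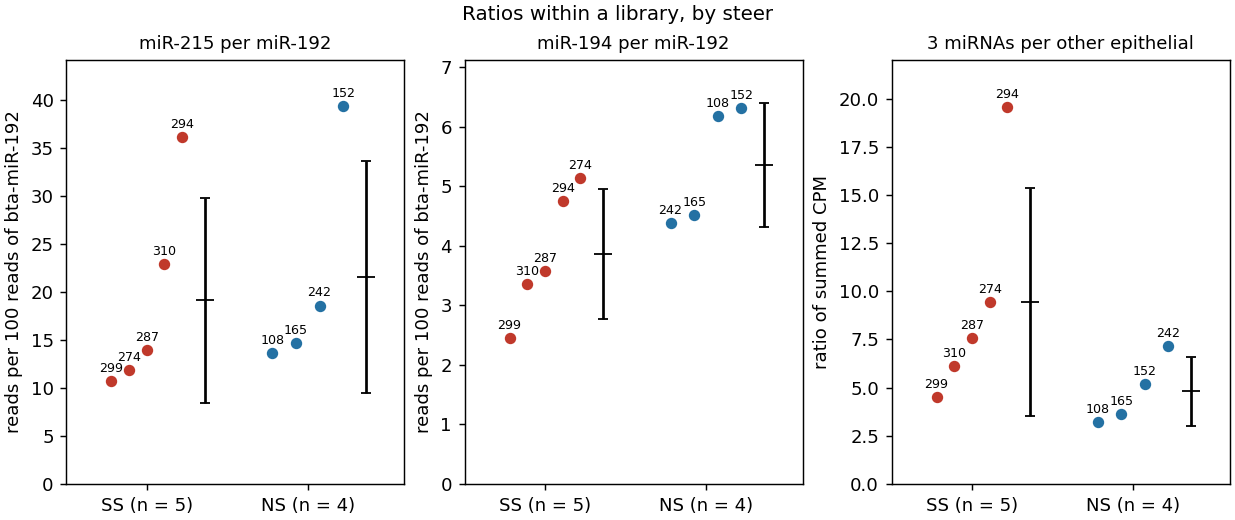
Ratios within each library for SS (red, n = 5) and NS (blue, n = 4), labelled by steer, with the mean and SD as bar and whiskers: reads of bta-miR-215 and of bta-miR-194 per 100 reads of bta-miR-192, and the summed CPM of the 3 miRNAs over that of 6 other epithelial miRNAs. The groups overlap in each panel; bta-miR-194 per bta-miR-192 averages 3.85 in SS and 5.35 in NS.

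The other miRNAs of the intestinal epithelium list went with the 3 across the animals. These were bta-miR-200a, bta-miR-200b, bta-miR-429, bta-miR-141 and bta-miR-200c, which belong to the miR-200 family that keeps cells epithelial by repressing ZEB factors, and bta-miR-375 of endocrine and epithelial cells. Their Spearman's rho with bta-miR-192 over the 9 libraries was 0.983 for bta-miR-141, 0.917 for bta-miR-200b, 0.900 for bta-miR-200a, 0.883 for bta-miR-429, 0.817 for bta-miR-200c and 0.733 for bta-miR-375, as a description. The lowest library of each was SS steer 274. There bta-miR-200b was at 103.4 CPM and bta-miR-375 at 132.0 CPM, against 820.6 to 9327 CPM and 1282 to 13775 CPM in the other SS libraries.

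In limma 9 of the 9 analysed miRNAs of this list, the 3 included, had a lower mean log2 value in SS with the deposited values (median -0.84, or -0.14 relative to the median miRNA). It was 6 of 9 with TMM factors and 4 of 9 without SS steer 274. Over all tested miRNAs the lower ones were 216 of 245, 127 of 245 and 200 of 244 in the same order. None of the 9 was called, as for the 245 as a whole. The most negative were bta-miR-375 at -1.56 (SE 1.17, adjusted p = 0.446) and bta-miR-429 at -1.54 (SE 1.07, adjusted p = 0.430). Of the 9, bta-miR-192 at -0.23 was nearest to 0, followed by bta-miR-141 at -0.30.

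The 3 miRNAs were compared with the other 6 inside each library by the ratio of their summed CPM, a measure chosen after the values had been seen. It was 4.54 in SS steer 299, 6.14 in SS steer 310, 7.58 in SS steer 287, 9.46 in SS steer 274 and 19.5 in SS steer 294. In NS it was 3.22 in steer 108, 3.64 in steer 165, 5.18 in steer 152 and 7.19 in steer 242. Although 3 SS libraries lay above every NS library, the log2 difference of 0.86 did not pass a two-sided exact permutation test (p = 0.103). It was 0.51 with bta-miR-375 left out of the other miRNAs (exact permutation p = 0.214) and 0.55 without SS steer 294 (exact permutation p = 0.171). In SS steers 274 and 294, the animals with the least and the most of the 3 miRNAs, the ratio was higher than in the other SS.

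**Figure D5:**
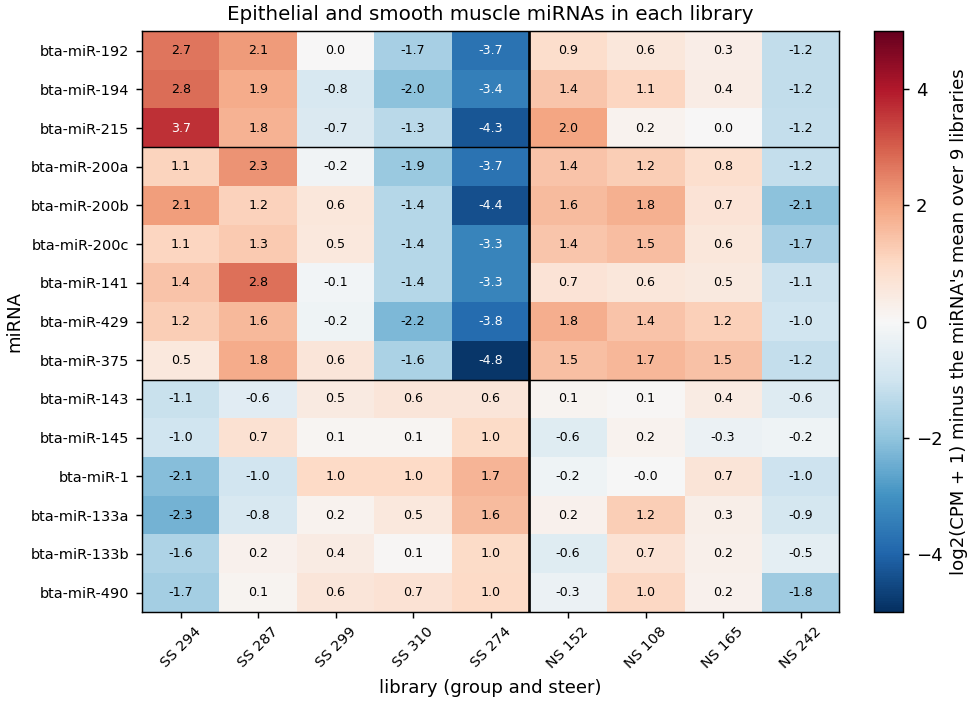
Log2(CPM + 1) of each miRNA minus its mean over the 9 libraries (colour and printed value), for the 3 miRNAs (top), 6 other epithelial miRNAs (middle) and 6 smooth muscle miRNAs (bottom), with SS libraries left and NS libraries right, each in falling order of bta-miR-192. All 9 epithelial miRNAs are below their mean in SS steers 274 and 310 and in NS steer 242, and bta-miR-215 reaches 3.67 in SS steer 294.

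Among all tested miRNAs, the one whose order of libraries was most like that of the 3 was bta-miR-141 (rho 0.983 with bta-miR-192 and with bta-miR-194, 0.95 with bta-miR-215). Next came bta-miR-182, of a cluster known from sensory and epithelial cells (rho 0.95, 0.95 and 0.933), and the low bta-miR-2310 (0.95, 0.95 and 0.917), at 0.792 to 8.85 CPM. They were followed by bta-miR-455-5p (0.933, 0.933 and 0.917), by bta-miR-153 for bta-miR-192 and bta-miR-194 (0.933 each) and by bta-miR-200b for bta-miR-215 (0.933). For comparison, the median rho of a tested miRNA with bta-miR-192 was 0.417.

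At the other end stood bta-miR-365-3p (rho -0.783 with bta-miR-192), bta-miR-193b (-0.783) and bta-miR-193a-5p (-0.750), and for bta-miR-215 also bta-miR-29d-5p (-0.750). For bta-miR-193b the level was 23.5 to 258 CPM over the 9 libraries. These are descriptions over 9 libraries that share their totals, with no test.

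The smooth muscle miRNA bta-miR-143 was lower where the 3 miRNAs were higher, but this rested on a few animals and on the scaling. Pearson's r with bta-miR-143 was -0.655 for bta-miR-192 (exact permutation p = 0.0550), -0.669 for bta-miR-194 (exact permutation p = 0.0516) and -0.682 for bta-miR-215 (exact permutation p = 0.0405), with an adjusted p of 0.0550 for each over the 6 pairs. Spearman's rho was -0.733 for bta-miR-192 and for bta-miR-194 (exact permutation p = 0.0311, adjusted 0.0373) and -0.700 for bta-miR-215 (exact permutation p = 0.0433, adjusted 0.0433). Without SS steers 274 and 294 r was -0.321, -0.355 and -0.295 for bta-miR-192, bta-miR-194 and bta-miR-215. With TMM factors r was -0.324, -0.396 and -0.378 for bta-miR-192, bta-miR-194 and bta-miR-215 (exact permutation p = 0.392, 0.288 and 0.318). When the total was taken without bta-miR-143 it was -0.458, -0.489 and -0.528 in the same order (exact permutation p = 0.219, 0.183 and 0.146). Inside the groups the sign differed, with r = -0.888 for bta-miR-192 among the 5 SS and r = 0.856 among the 4 NS. In NS steer 242 both bta-miR-192 (1.80%) and bta-miR-143 (30.4%) were the lowest of the NS, beside a summed level of 44746 CPM for the 8 leukocyte miRNAs, against 3800 to 6182 CPM in the other NS. Among the SS the leukocyte sum was highest in steer 294, at 20359 CPM, where bta-miR-192 was also highest. Over the 9 libraries the rho of the 8 leukocyte miRNAs with bta-miR-192 was 0.383 to 0.667, against a median of 0.417 for a tested miRNA. The part of leukocyte RNA in these values was not tested.

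The smooth muscle list held bta-miR-143, bta-miR-145, bta-miR-1, bta-miR-133a, bta-miR-133b and bta-miR-490. Of these 6, 5 had a higher mean log2 value in SS and 1, bta-miR-133a at -0.39, a lower one (median 0.17, or 0.86 relative to the median miRNA). All 6 were higher with TMM factors, but 2 of 6 without SS steer 274 and 1 of 6 without NS steer 242. Over all tested miRNAs, 216 of 245 were lower in SS with the deposited values and 127 of 245 with TMM factors. It was 200 of 244 without SS steer 274 and 197 of 240 without NS steer 242. None of the 6 was called. The summed smooth muscle list took 22.2% to 73.7% of the SS libraries and 30.6% to 62.8% of the NS libraries. Nearly all of this was bta-miR-143, at 22.1% to 73.1% in SS and 30.4% to 62.5% in NS. The summed leukocyte list was at 691 to 20359 CPM in SS and at 3800 to 44746 CPM in NS.

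Of 8 miRNAs known to respond to p53, 6 were tested: the 3, bta-miR-34a, bta-miR-107 and bta-miR-145, which is also on the smooth muscle list. With the deposited values 5 were lower and 1, bta-miR-145 at 0.42, higher in SS (median -0.56, or 0.13 relative to the median miRNA). There 88.2% of the 245 were lower. With TMM factors 3 were lower and 3 higher, without SS steer 274 2 lower and 4 higher, and in DESeq2 1 of 6 was lower. Over all tested miRNAs 127 of 245, 200 of 244 and 117 of 245 were lower in these settings. None of the 6 was called in limma. The best known of them, bta-miR-34a, was at 30.7 ± 26.1 CPM over the 5 SS (SD), against 39.5 ± 6.39 CPM over the 4 NS (SD), which left a log2 difference of -0.70 (SE 0.58, adjusted p = 0.496 in limma). The median tested miRNA was at -0.70 as well. The rho of bta-miR-34a with bta-miR-192 was 0.650, and that of bta-miR-107 was 0.517. The squamous epithelial miRNA bta-miR-205 was at 0.158 to 34.7 CPM in SS and 2.23 to 187 CPM in NS.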

How the data were processed

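The authors sequenced TruSeq small RNA libraries from single ends and matched the reads to miRBase with the sRNA toolbox. The submitters' processing notes name Bowtie and edgeR, without versions in the sources used here. The deposited values, called CPM or RPM by the authors, are recorded as a read-based signal because the columns sum to more than 1000000. Adapter ligation and PCR favour some small RNAs, so a ratio of 2 miRNAs is one of reads, not molecules. All 9 columns were used (0 left out). Dividing each library by its smallest step gave whole reads for 100% of the values (within 1e-06 reads), and from these the library totals.

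SS and NS were compared on log2(CPM + 1), which understates changes of low miRNAs, using limma 3.58.1 in R 4.3.3, with the variance prior trended on abundance and Benjamini-Hochberg adjustment; edgeR 4.0.16 and DESeq2 1.42.0 on recovered reads were alternatives, because the table is normalized. Ratios and summed share were tested by exact permutation of the group labels (126 arrangements). For spread the deviations from the median of the own group were permuted over the same arrangements, with the medians kept as they were. All arrangements were counted, but such deviations are not fully exchangeable, so these p values are approximate. Steer numbers name animals and pair none, and where tissue pieces stand for 1 animal each, p-values measure the spread between animals. Procedures were tested on simulated data. The members and lists were chosen with earlier results of these data known. Named were the 3 miRNAs, the tested members of the epithelial, smooth muscle and p53 lists, and per member the 5 miRNAs with the highest and the 3 with the lowest rho. No sequences are shown.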

Additional observations from a re-analysis of the deposited data

Results flagged for a closer look

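Of 32 groups of values examined, 3 had 1 library far from the others of its group. For a single group chance gives about 1 in 20, and the groups are not independent, because sums and ratios reuse the same miRNAs. In SS steer 294 bta-miR-215 was at 97989 CPM, against 392.5 to 25951 CPM in the other SS libraries. This flag was on the CPM scale. On the log2 scale SS steer 294 was 3.67 from the mean of the 9 libraries and SS steer 274 was -4.29 from it. In NS steer 152 bta-miR-192 made up 68.7% of the summed reads of the 3 miRNAs, against 81.3% to 83.9% in the other NS libraries. In NS steer 242 the summed leukocyte miRNAs reached 44746 CPM, while the other NS had 3800 to 6182 CPM.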

How the results depend on the processing

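The 3 miRNAs were not called in any setting, but their direction between SS and NS was not stable. The log2 difference (SS minus NS) of bta-miR-192 turned to 0.46 with TMM factors, 0.47 with median-of-ratios factors, 0.0218 with bta-miR-143 left out of the total, 0.97 in both edgeR tests and 1.02 in DESeq2. That of bta-miR-215 turned to 0.27, 0.28, 0.99 and 1.04 with TMM factors, with median-of-ratios factors, in both edgeR tests and in DESeq2, and that of bta-miR-194 to 0.47 in both edgeR tests and 0.53 in DESeq2. With each library left out in turn the range was -0.93 to 0.66 for bta-miR-192, -1.51 to 0.0478 for bta-miR-194 and -1.38 to 0.61 for bta-miR-215. The ratio of bta-miR-215 to bta-miR-192 ranged from -0.46 to 0.15. Without NS steer 152 bta-miR-192 and bta-miR-215 were at 0.0131 and 0.16, and without SS steer 310 bta-miR-192 was at 0.16. The cause was not tested.

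The difference in summed share, 6.59 percentage points, was 0.393 without SS steer 294 and 9.85 without SS steer 274, and on a log2 scale it turned to -0.28. Correlations between the 3 miRNAs kept r between 0.926 and 0.988 when each library was left out. Those with bta-miR-143 ranged from -0.832 to -0.491 for bta-miR-192, from -0.842 to -0.507 for bta-miR-194 and from -0.837 to -0.478 for bta-miR-215; without NS steer 242 all 3 passed at an adjusted exact permutation p of 0.0109, and without NS steer 152 that of bta-miR-215 did (r = -0.747, adjusted exact permutation p = 0.0372). They were weaker with TMM factors (-0.324 to -0.396) and with bta-miR-143 left out of the total (-0.458 to -0.528), where none passed. Over all miRNAs 1 was called without the filter, 1 by the exact test of edgeR and 9 by DESeq2. Of 222 alternative values over 17 results, 193 kept their direction and side of the threshold or, for the number of miRNAs called, that number. Most main results did not pass their test, so staying on that side says little about stability. The ratio of the 3 miRNAs to the other epithelial miRNAs and its alternatives were chosen after seeing the data; its log2 difference of 0.86 was 0.51 without bta-miR-375 and 0.549 to 1.076 with each library left out. The NS were pen-mates of the SS, but the sample labels give no pen, so no analysis by pen or pair was made. Library totals differed 9.70-fold, with 18142261 reads in all SS and 5727503 in all NS. SS steer 294, the highest for the 3 miRNAs, had the fewest SS reads (1486495). SS steers 310 and 274, the lowest, had the most (6314556 and 4438272). In NS, steer 242, the lowest, had 896649 reads, and steer 152, the highest, had 1863964. Steers 108 and 165, which lay between them for all 3 miRNAs, had the fewest and the most NS reads (650726 and 2316164). The part of read depth in these comparisons was not tested.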
